A study of Homo sapiens with 8 samples.

Results

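The subject here is the background of a gel-free CLIP experiment, taken from 2 control peak lists: Halo-tagged PTB without UV and Halo-tagged YFP with UVC light. All peaks of both lists were used, and peaks within 20 nt of each other on one strand were merged into sites. This gave 2341 sites for PTB without UV and 1080 sites for YFP with UVC, 3421 of the 206508 sites that the 5 lists of the series hold. Every sample of the series came from 293T cells, a human embryonic kidney line, grown with puromycin and carrying a Halo-PTB or a Halo-YFP transgene. The PTB group without UV and the YFP group with UVC have 2 samples each, with 1 peak list per group that names no replicate. The other 3 lists are PTB with UVC, PTB with UVA, and a PTB list that the submitters made from published iCLIP reads. What drives the transgenes, and whether each line is a single clone, is not given in the sources used here. Neither the tagged protein nor the light dose is measured in the lists, so the labels were not checked against either. Because each group is a single list, no value has a spread between replicates and no difference between conditions was tested.

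CLIP relies on UV light to join a protein covalently to the RNA it touches, so that only directly bound RNA should survive stringent washing. PTB, the polypyrimidine tract binding protein, binds pyrimidine-rich RNA and regulates splicing. The Halo tag bonds covalently to a ligand on beads, which allows the washes to replace the gel step of older protocols. PTB without UV keeps the RNA-binding protein and leaves out the crosslink. YFP, a fluorescent protein from jellyfish with no known role in RNA binding in human cells, keeps the crosslink and leaves out the RNA-binding protein. Abundant, structured nuclear RNAs are a familiar component of such controls in general. Sites are named here by hg19 position and strand, because no hg19 gene annotation was used and RNA classes were not assigned.

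The background of PTB without UV was made of many narrow sites, and that of YFP of fewer and wider ones. The list without UV covered 116 kb with sites of median width 50 nt, from 6 to 169 nt. The YFP list covered 99.4 kb with sites of median width 87 nt, from 6 to 229 nt. Both lists were spread almost evenly over the strands, with 1178 plus-strand and 1163 minus-strand sites without UV, and 544 and 536 for YFP. The list without UV held 2.99% of its sites in common with YFP, and 6.20% of YFP sites were in common with it. Neither list had a site on the mitochondrial or the Y chromosome.

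The lists had unlike site widths. Without UV, 1281 sites (54.7%) were exactly 50 nt wide and 2043 (87.3%) lay between 45 and 52 nt. In the YFP list 1 site was 50 nt wide and 16 (1.48%) lay between 45 and 52 nt. The most frequent YFP width was 142 nt, at 55 sites (5.09%), and 247 sites (22.9%) were 70 to 80 nt wide. No site without UV was 142 nt wide, and 7 (0.299%) fell between 70 and 80 nt. Sites over 100 nt made up 0.470% of sites without UV and 33.5% of YFP sites. The 50 nt mode was also present in the PTB UVC list, where 23049 sites (28.6%) had that width and 55.3% lay between 45 and 52 nt. It was not seen in the PTB UVA and iCLIP lists, whose commonest widths, 30 and 32 nt, took 1.83% and 1.82% of sites. The 50 nt width was thus common to 2 PTB lists, 1 of them without light, and nearly missing from the YFP list made with UVC. The labels name 2 sequencing platforms without assigning libraries to them, so condition and platform cannot be told apart in these widths.

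**Figure D1:**
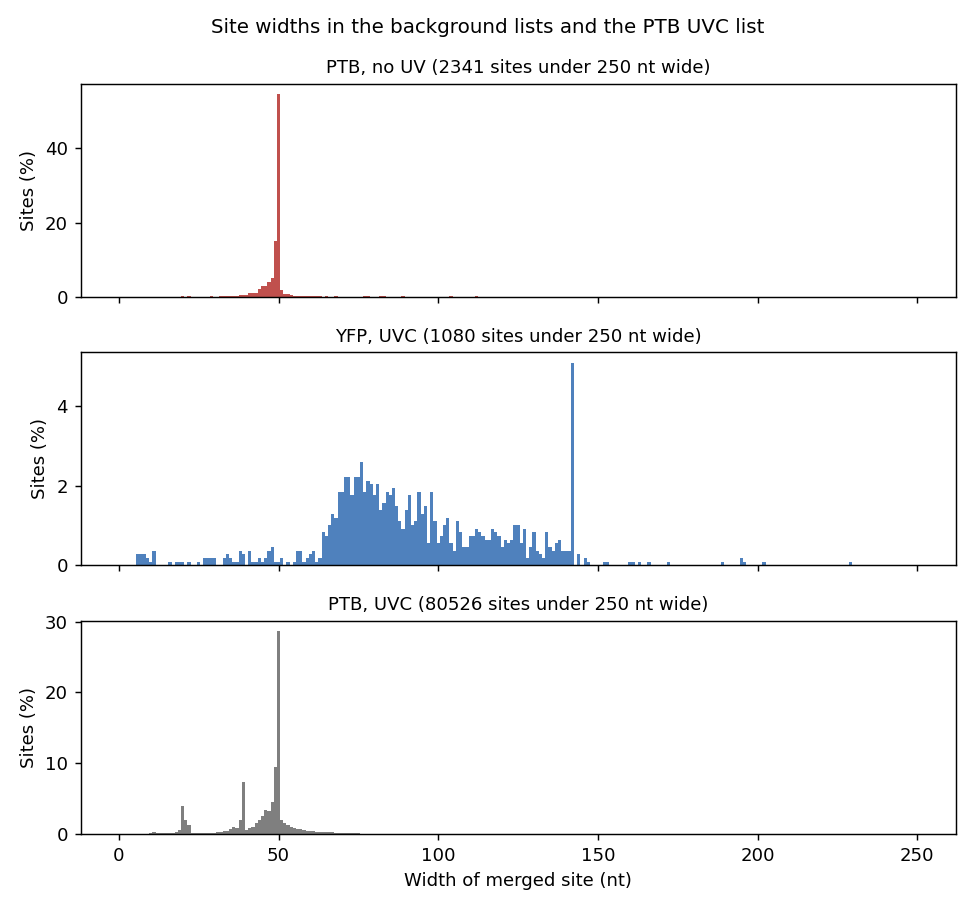
Share of sites (percent, vertical axis, with its own scale in each panel) at each width in nt (horizontal axis) for PTB without UV, YFP with UVC and PTB with UVC. The first and last panels peak at 50 nt, with 54.7% and 28.6% of sites, and the YFP panel spreads from about 70 nt up to a peak of 5.09% at 142 nt.

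On the plus strand, most narrow sites without UV also held an 11 nt peak. There, 957 of 2268 distinct peaks without UV (42.2%) were 11 nt wide, and each of the 957 was touched by a further peak at its higher coordinate and by none at its lower one. On the minus strand 156 of 1384 (11.3%) were 11 nt wide, and again each was touched at the higher coordinate alone. Of the sites of 45 to 52 nt without UV, 938 of 1027 on the plus strand (91.3%) and 156 of 1016 on the minus strand (15.4%) held such a peak. Of sites of other widths, 19 of 151 on the plus strand and 0 of 147 on the minus strand did. In the YFP list 5 of 1119 plus-strand peaks (0.447%) and 9 of 906 minus-strand peaks (0.993%) had this width. The PTB UVC list held 26.8% and 6.25% of such peaks on the plus and minus strands. Peak numbers differed between strands more than site numbers did: PTB without UV had 2368 plus and 1441 minus peaks, and YFP had 1186 and 950. For this reason sites, not peaks, were counted throughout.

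Most of each background lay near the lowest scores that were listed. The score deposited for each peak rises as its p-value falls, runs up to a limit of 1000, and ranks positions within a list only. Its median over sites was 17 in both lists. Scores above 100 were reached by 26 sites without UV (1.11%) and by 100 YFP sites (9.26%). The limit itself was reached by no site without UV, where the highest was 881, and by 17 YFP sites. For 16 of the 17 the deposited score itself was 1000, and the other, chr12:120729572-120729637 (minus), had a deposited p-value and score of 0, which was taken as the limit. Scores depend on depth, which is unknown for these lists.

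Both backgrounds were scattered along the genome, apart from a few dense loci. The median distance from a site to its next neighbour on that strand was 950 kb without UV and 2184.2 kb for YFP, against 4.59 kb for PTB UVC. This distance shrinks as a list grows, and the lists held 2341, 1080 and 80531 sites. It was not adjusted for list size, so it does not compare their layouts. In windows of 100 kb per strand, sites without UV fell in 1958 windows, of which 1676 (85.6%) held 1 site. YFP sites fell in 928 windows, of which 834 (89.9%) held 1 site. The 10 richest windows held 77 sites without UV (3.29%) and 69 YFP sites (6.39%). Leaving out the single richest window lowered these shares to 2.08% and 3.91%. Window shares depend on list size too and were not adjusted for it, so they do not compare the layouts either.

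The richest window was the same in both lists, the minus strand of chrX:73000001-73100000. It held 33 sites without UV and 31 YFP sites, a share of 1.41% without UV (exact 95% interval 0.972 to 1.97) and of 2.87% for YFP (1.96 to 4.05). The PTB lists made with light had a smaller share of their sites there: 46 sites (0.0571%) in UVC, 62 (0.0884%) in UVA and 6 (0.0114%) in iCLIP. In each background the sites spanned 30.5 kb, from 73041882 to 73072423 without UV and from 73042076 to 73072527 for YFP. They were therefore spread along one stretch, not stacked at one point.

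Within this stretch most sites of each background lay at positions of their own, though overlap was more frequent than in the whole lists. Of the 33 sites without UV 10 overlapped a YFP site, where 2.99% of the whole list did. Of the 31 YFP sites 9 overlapped one without UV, where 6.20% of the whole list did. The window was chosen for its counts, so this contrast is a description. The strongest site without UV, chrX:73047176-73047287, scored 280 and met the strongest YFP site of the stretch, chrX:73047223-73047417, which scored 95. A second site without UV, chrX:73047310-73047374 with a score of 136, lay inside that YFP site. Upstream of this group the sites without UV left a gap of 11366 nt, in which 5 YFP sites lay. The widths here departed from the rest of the list without UV: the median was 45 nt, and 2 of the 33 sites were exactly 50 nt wide. Of the 33 sites without UV 17 lay on a PTB UVC site and 20 on a UVA site. Over the whole list without UV these shares were 17.7% and 14.5%. Of the 31 YFP sites 15 lay on each, against 25% and 21.4% of the whole YFP list. These contrasts are descriptions too.

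**Figure D2:**
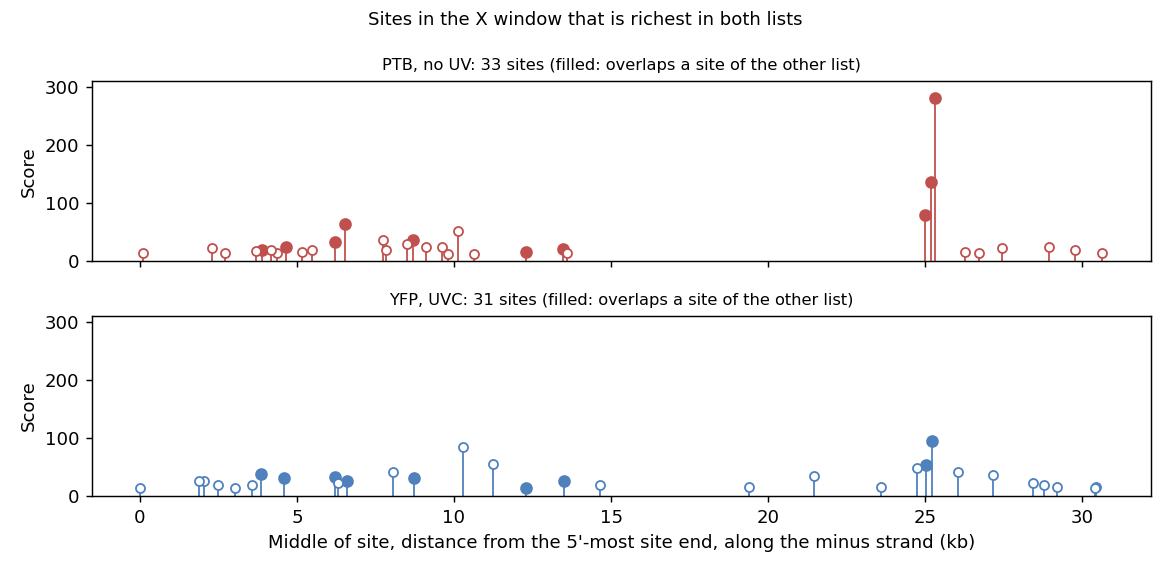
Deposited score (vertical axis) of each site in the minus-strand X window against the distance of its middle in kb from the 5′-most site end (horizontal axis), for PTB without UV (33 sites, above) and YFP with UVC (31 sites, below). Filled circles overlap a site of the other list; the sites run over the same 30.5 kb, and the highest in each panel, at 280 and 95, overlap.

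The next richest window, the plus strand of chr11:65200001-65300000, held 7 sites without UV and 9 YFP sites, and none of them overlapped. The closest were 58 nt apart. The sites without UV scored 15 to 29, and 4 of the 7 lay between 65269545 and 65270145. The strongest YFP site of the window, chr11:65273428-65273571, scored 330. The same window held 44 UVC, 48 UVA and 40 iCLIP sites. The background sites lay in 2 groups, from 65202271 to 65207663 and from 65268334 to 65273571, and each group held sites of both lists. The 2 backgrounds thus drew on this window, which is dense in PTB sites as well, at separate positions.

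Of the remaining dense windows some belonged to both backgrounds and some to 1. Windows with at least 3 sites in each list numbered 5, the X and chromosome 11 windows among them. The plus strand of chr5:138600001-138700000 held 5 sites without UV and 3 YFP sites, with 2 overlapping pairs. There the site chr5:138611868-138611976, with a score of 52 without UV, lay inside a YFP site at the limit of 1000, and chr5:138614584-138614632, with a score of 16, lay inside a YFP site of 202 nt with a score of 177. The plus strand of chr17:7400001-7500000 held 5 and 3 sites with 1 overlapping pair, and the minus strand of chr22:39700001-39800000 held 3 and 3 with 2 pairs. Without UV, the minus strand of chr5:106900001-107000000 held 5 sites, 4 of them exactly 50 nt wide, and none lay on a site of another list. The minus strand of chr19:3900001-4000000 also held 5 sites without UV and no YFP site, but 14 UVC and 23 UVA sites lay in the same window.

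The YFP list had a dense stretch of its own on chromosome 18. In the 5 minus-strand windows of chr18:36900001-37400000 it held 12 sites, against 2 without UV, 0 in UVC, 1 in UVA and 0 in iCLIP. The 7 of these in the last 2 windows ran from 37270919 to 37379219, scored 15 to 19, and were 8 to 96 nt wide. They fell in 3 groups of neighbouring pieces, so 7 sites overstates the number of separate places. The nearest minus-strand site to any of the 7 was 212 kb away without UV, 356 kb away in UVA and 1750.0 kb away in UVC. Why they appear in the YFP list was not tested. This stretch was chosen for its counts, so its contrast is a description.

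The positions common to both backgrounds formed a small set. Of the 2341 sites without UV, 70 (2.99%, interval 2.34 to 3.76) met a YFP site by 1 nt or more on their own strand. Of the 1080 YFP sites, 67 (6.20%, interval 4.84 to 7.81) met a site without UV in the same way. With sites of 45 to 52 nt left out of both lists, the shares were 13.8% without UV and 3.67% in YFP. With at least 50% of the site covered, they were 2.69% without UV and 2.59% in YFP. In nucleotides, 3419 were common, 2.95% of those covered without UV and 3.44% of those covered by YFP. On the opposite strand no site of either list met the other. Within 10 kb, 221 sites without UV (9.44%) had a YFP site on their own strand and 15 (0.641%) had one on the opposite strand. Of the YFP sites 215 (19.9%) and 14 (1.30%) had a site without UV in the same range. Beyond the overlapping sites, the lists thus lay near each other mainly on the same strand.

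At the scale of a broader locus, the lists had 244 windows of 100 kb in common, 12.5% of those with a site without UV and 26.3% of those with a YFP site. Overlapping sites were found in 51 of the 244, and in 193 the lists had sites at separate positions. These windows held 369 sites without UV (15.8%) and 334 YFP sites (30.9%).

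Common sites had higher median scores than the rest of each background, with overlapping ranges. Sites without UV that met YFP had a median score of 30, against 17 for those that did not. YFP sites that met a site without UV had a median score of 158, against 17 for the others. Scores of 20 or less were held by 31.4% of common sites without UV and 5.97% of common YFP sites. Among the others the shares were 61.8% and 62.3%. Common YFP sites were also wider, with a median of 114 nt against 87 nt, while both medians without UV were 50 nt. Score and width were not separated. At scores up to 16, 13 of 849 sites without UV (1.53%) and 2 of 405 YFP sites (0.494%) were common. Above 100 the counts were 14 of 26 without UV (53.8%, interval 33.4 to 73.4) and 39 of 100 for YFP (39.0%, interval 29.4 to 49.3). Across the whole lists the shares were 2.99% and 6.20%. At the limit of 1000, 13 of 17 YFP sites (76.5%, interval 50.1 to 93.2) lay on a site without UV. The score bands were set with these data in view, and the intervals cover counting error only.

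**Figure D3:**
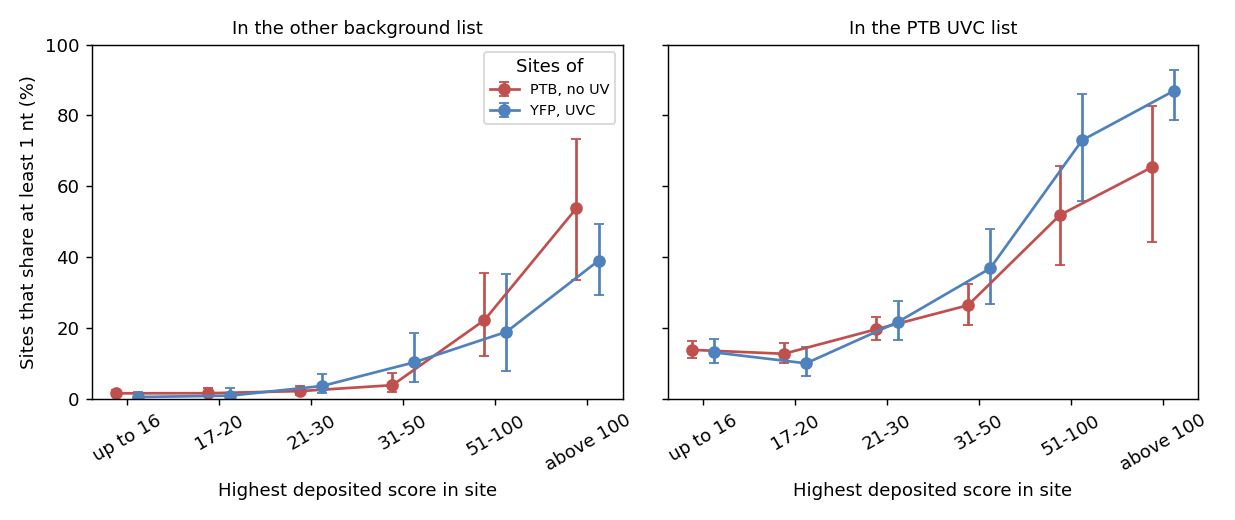
Share of sites (percent, vertical axis) that overlap the other background list (left) or the PTB UVC list (right), by the highest deposited score in the site (horizontal axis), for PTB without UV and YFP with UVC. Bars are exact 95% intervals for counting error; above a score of 100 the shares are 53.8% and 39.0% on the left and 65.4% and 87.0% on the right.

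Many of the strongest positions of the background without UV were YFP positions as well. Over the whole list without UV 2.99% of sites lay on a YFP site. Of its 20 highest-scoring sites 12 did, and of the 10 highest 7 did. The first, chr1:11968230-11968294 (plus), scored 881 without UV, while its YFP partner chr1:11968249-11968312 scored 162. The second, chr1:28833874-28834042 (plus), scored 403 and met chr1:28833923-28834083 at the YFP limit of 1000. A neighbour on the same strand, chr1:28835070-28835231, scored 303 and met chr1:28835115-28835274, also at the limit. These 2 positions, nearly as wide in YFP, were the widest sites of the list without UV, at 169 and 162 nt.

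Other loci in this group had a YFP partner at or near the top of its list. The minus-strand site chr11:62609163-62609273 scored 277 without UV and lay inside chr11:62609120-62609282, at the limit in YFP. The plus-strand site chr6:52860647-52860709 scored 394 and met chr6:52860663-52860748, which scored 538 in YFP. YFP had another site on that strand close by, chr6:52860434-52860516 with a score of 512, which no other list met. By contrast chr2:203157774-203157824 (plus) scored 289 without UV and its YFP partner chr2:203157775-203157856 scored 21. Partners thus ranged from the top of the YFP list to near its lowest scores.

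In the YFP list 17 sites tied at the limit, and 13 of them lay on a site without UV. The 10 widest of the 17, which the tie rule names first, all did, and 14 of the 20 highest-ranked sites did. Over the whole YFP list 6.20% did. These 10 were picked by width, and wider YFP sites met the list without UV more often. The shares were 9.94% of those over 100 nt and 4.32% of those of 53 to 100 nt, so the 10 of 10 is a description. The widest of the 17 was chr17:75085388-75085576 (plus, 189 nt), which contained 2 sites without UV, scoring 57 and 17. The next, chr14:20811229-20811400 (minus), met 2 sites without UV that scored 26 and 13. On the plus strand of chromosome 3, chr3:186504464-186504603 and chr3:186505091-186505222 were both at the limit in YFP, and their partners without UV scored 74 and 110. The 5′ ends of the first of these were at the same nucleotide in both lists. The minus-strand site chr14:20791337-20791488 met a site that scored 62, chr16:2012335-2012468 (minus) met one that scored 27, and chr17:19091365-19091508 (plus) met one that scored 185. The partners of YFP sites at the limit scored from 13 to 403 without UV, where the whole list ran from 13 to 881.

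Some strong positions were found in 1 background alone. Without UV, 12 sites scored above 100 and met no YFP site, and all 12 were 46 to 52 nt wide, where 87.3% of the whole list were 45 to 52 nt wide. Of the 12, 7 lay on none of the PTB lists made with light, against 1747 of all 2341 sites (74.6%). None of the 12 lay on an iCLIP site, where 6.75% of the whole list did. At this number these counts could not be told from the shares of the whole list. The highest, chr12:63244608-63244653 (minus), scored 321 and lay on a UVC site alone. The plus-strand site chr3:173624669-173624720, with a score of 198, and the minus-strand site chr3:186534269-186534318, with a score of 165, lay on no other list. The 14 sites without UV above 100 that did meet YFP were 50 to 169 nt wide, with a median of 66 nt.

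In the YFP list 61 sites scored above 100 and met no site without UV. Of these, 48 lay on a PTB UVC site, 34 on a UVA site and 12 on an iCLIP site, and 13 lay on none of the 3. The 4 at the limit were chr11:2985000-2985124 (minus), chr20:2635711-2635832 (plus), chr11:93468294-93468405 (minus) and chr5:180668816-180668891 (minus), and each lay on a UVC and a UVA site. The minus-strand window chr20:37000001-37100000 held 4 YFP sites, scoring 123 to 628, of which 1 met a site without UV and all 4 lay on a UVC site. Among all 100 YFP sites above 100, 87 lay on a UVC site, so each of the 39 that met a site without UV was also on one. Over the whole YFP list 25% of sites lay on a UVC site, 21.4% on a UVA site and 9.91% on an iCLIP site. On none of the 3 lay 67.5%.

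Where the backgrounds overlapped, the 5′ ends lay closer together than the 3′ ends at the median, with a wide range at both. The 70 overlapping pairs join 70 sites without UV to 67 YFP sites. Along the RNA, the 5′ ends of 28 pairs were within 5 nt of each other, and the 3′ ends of 2 pairs. The YFP site ended further downstream in 63 of 70 pairs, with a median difference of 43.0 nt over all pairs. It began further upstream in 30. Without regard to direction, the ends were a median of 9.5 nt apart at the 5′ side and 44 nt at the 3′ side, and up to 130 nt at each. In 31 pairs (44.3%) the site without UV lay wholly inside the YFP site, and in 64 the YFP site was the wider one. No pair had identical ends on both sides. In the X window none of the 10 pairs had 5′ ends within 5 nt, so all 28 came from the 60 pairs elsewhere.

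Scores of the pairs were higher on the YFP side. The YFP score was the higher in 54 pairs and the score without UV in 16. Within the X window the order was the other way round in 7 of 10 pairs, and elsewhere in 9 of 60. Since scores depend on depth, this compares the lists and not the amounts of RNA. In 10 pairs both scores were above 100. Across the 70 pairs Spearman's rho between the scores was 0.25, where the points share loci and 15 YFP scores are tied at the limit.

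**Figure D4:**
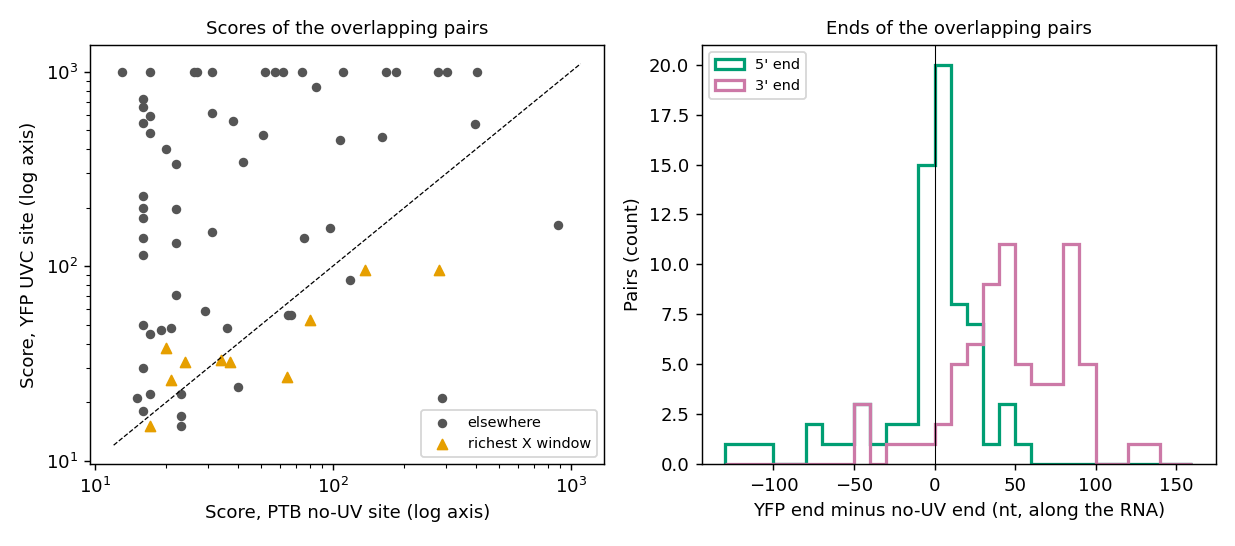
Left, deposited score (0 with a p-value of 0 drawn at 1000) of the YFP site against that of the site without UV for the 70 overlapping pairs (log axes; the dashed line marks equal scores; triangles are the 10 pairs of the X window). Right, number of pairs by the distance in nt from the end of the site without UV to that of the YFP site along the RNA, with 3′ ends shifted downstream by a median of 43.0 nt and 5′ ends spread to both sides of 0.

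The common sites were nearly always PTB UVC sites too. Of the 70 common sites without UV, 64 (91.4%, interval 82.3 to 96.8) lay on a UVC site, and of the 2271 others 351 (15.5%) did. Over the whole list without UV the share was 17.7%. Of the 67 common YFP sites, 63 (94.0%, interval 85.4 to 98.3) lay on a UVC site, against 207 of 1013 others (20.4%) and 25% of the whole list. UVA sites covered 43 of the 70 and 57 of the 67, and iCLIP sites 23 and 27. In the whole lists these shares were 14.5% without UV and 21.4% for YFP on UVA sites, and 6.75% and 9.91% on iCLIP sites. Common sites had higher median scores than the rest, and how far score accounts for these shares was not tested.

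Most of each background was met by no other list. Without UV 1745 sites (74.5%) lay on none of the other 4 lists, and 728 YFP sites (67.4%) did. These unmatched sites had a median score of 17 in each list and never exceeded 198 without UV or 525 in YFP. Of the 1745, 92.6% were 45 to 52 nt wide, against 41.4% of the 70 common sites. A further 351 sites without UV (15.0%) were met by UVC and not by YFP, and 207 YFP sites (19.2%) were met by UVC and not by the list without UV.

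The share of each background lying on PTB UVC sites varied between width classes. Without UV it was lowest at 45 to 52 nt and higher in each wider class. The YFP values ran in the same order, but only 16 YFP sites were 45 to 52 nt wide. Their interval, 1.55 to 38.3, held the shares of the other YFP classes, so no lowest class is shown there. Overlap by 1 nt is easier for wide sites, and this was not adjusted for. Over the whole lists it was 17.7% without UV (interval 16.2 to 19.3) and 25% in YFP (interval 22.4 to 27.7). Among sites without UV of 45 to 52 nt the share was 13.2%, and 1.42% of them lay on a YFP site. Among the 298 sites of other widths it was 48.7% (interval 42.9 to 54.5), and 13.8% lay on a YFP site. Of the 187 sites without UV narrower than 45 nt, 27.8% lay on a UVC site and 6.95% on a YFP site. In the YFP list 27.8% of 54 sites narrower than 45 nt lay on a UVC site, 12.5% of 16 sites of 45 to 52 nt, 18.5% of 648 sites of 53 to 100 nt and 36.7% of 362 wider ones. Leaving out sites of 45 to 52 nt turned the order of the lists, with 48.7% without UV and 25.2% in YFP. With at least 50% of the site covered the shares were 13.6% and 16.3%. Width limits were picked with these values in view.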

How the data were processed

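The deposited peak lists have 10 columns and no header. Per the submitters' processing notes, hg19, dm3 and Bowtie 1.1.2 are named, with no roles stated. The peak caller, and how replicates were joined, is not given in the sources used here. Each deposited score was read as 10 times the negative log10 of the deposited p-value, which held after rounding down for 3778 of 3779 peaks without UV and 1882 of 1887 YFP peaks with a printed p-value above 0. YFP peaks deposited with a p-value and a score of 0 (39) were set to the score limit of 1000. Positions as deposited by the authors were rewritten 1-based. Sites were peaks within 20 nt on one strand, with the highest score kept, and met another list where at least 1 nt was shared on the same strand. Intervals are exact (Clopper-Pearson, 95%), treat sites as independent and cover counting error only. Depth is unknown. Named positions were the overlapping sites covering most nucleotides, the windows of 100 kb with most sites, and the 10 highest-scoring sites of each list (ties by width, then position). Others were picked after their values were seen: strong sites of 1 list, the chromosome 18, 19, 20 and 22 windows, and the second chromosome 6 site. Named gene lists, and the shares in small RNA genes, exons and introns, could not be worked out without an hg19 annotation, and no reference sequence was used. Members, lists and tests were chosen with earlier results of these data known. Overlap counts equalled those of bedtools 2.31.1 in 8 of 8 comparisons and were tested on simulated data. Software was matplotlib 3.10.9, scipy 1.17.1, Python 3.11.15, pandas 2.3.3 and numpy 2.4.6.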

Additional observations from a re-analysis of the deposited data

How the results depend on the processing

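No paired analysis was possible because each group is 1 list with no replicate columns; for the same reason no replicate could be left out. Alternatives for exons, introns and small RNA genes were not run, since no hg19 annotation was used. Of 54 values recomputed under 8 planned and 2 added settings, 38 stayed within the interval of the reported share. Keeping only chromosomes 1 to 22 and X could change nothing, since neither background had a site elsewhere. Ignoring strand could change little, since almost no site met another list on the opposite strand. The values of both settings are among the 38 and say nothing about stability. Counting distinct peaks gave 15.6% of peaks without UV on UVC and 8.30% of YFP peaks in the 10 richest windows. Sites at or above the median score gave 7.85% of YFP sites on the list without UV, 29.6% on UVC, and 8.44% in the 10 richest windows. Requiring 50% coverage gave 13.6% of sites without UV and 16.3% of YFP sites on UVC, and 2.59% of YFP sites on the list without UV. Allowing 50 nt gave 22.8% and 28.0% on UVC. Without sites of 45 to 52 nt, added after seeing the data, 13.8% of sites without UV met YFP and 3.67% of YFP sites the list without UV, 48.7% of sites without UV met UVC, and their 10 richest windows held 15.1%. Without the X window, also added, the 10 richest windows held 2.08% without UV and 3.91% in YFP. The causes were not tested.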

Other observations

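Chromosome shares of the 2 backgrounds were compared as ratios, which ran from 0.629 to 1.32. The ratio of a chromosome's share of sites without UV to its share of YFP sites had a normal 95% interval that held 1 on all but 2 of 23 chromosomes. An interval that holds 1 does not show equal shares, and some were wide, such as 0.658 to 2.45 on chromosome 21. Chromosome 11 held 3.20% of sites without UV and 5.09% of YFP sites, a ratio of 0.629 (interval 0.448 to 0.884), and chromosome X held 4.31% and 5.93%, a ratio of 0.728 (interval 0.537 to 0.987). Outside the richest X window, chromosome X held 68 of the remaining 2308 sites without UV and 33 of the remaining 1049 YFP sites. Outside the richest chromosome 11 window lay 68 of the 75 sites without UV on that chromosome and 46 of the 55 YFP sites. With 23 intervals and no adjustment, these are descriptions.

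Some intervals were listed more than once. Without UV 151 intervals were repeated, 6 of them 3 times, and 73 of the 151 carried unlike scores. In the YFP list 106 were repeated, 5 of them 3 times, and 43 carried unlike scores. The repeats fell in 98 sites without UV and 59 YFP sites. Merging into sites counted each of them once.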
